A study of Mus musculus with 30 samples.

Results

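The genes of the tRNA modification enzymes were followed in the nuclear RNA of mouse embryonic stem (ES) cells that were depleted of SRCAP, the ATPase that places the histone variant H2A.Z in chromatin. The members were the 49 protein-coding genes, of 55401 genes in the count tables, whose symbols name deaminases (Adat), tRNA methyltransferases (Trmt), Elongator subunits (Elp), thiolation factors (Ctu), wybutosine enzymes (Tyw), dihydrouridine synthases (Dus), pseudouridine synthases (Pus), cytosine methyltransferases (Nsun2 to Nsun7), or Alkbh1, Alkbh8, Trmu, Mto1 and Thg1l. The genes were chosen by symbol, and the set was proposed on the measured exon differences of Adat2 and Alkbh8, which were lower after 6 h of depletion. The 6 h comparison with control is therefore given as a description with no p-value, and so are the values of Adat2 and Alkbh8 in every comparison with the same control libraries. Counts of genes past a threshold in these comparisons can include both genes and are not read as support for the set.

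The libraries were 30 nuclear RNA-seq libraries in 15 groups, with n = 2 per group, in 4 count tables. SYAT cells derive from 1 clone of the CGR8 ES line in which both Srcap alleles carry a YPet and auxin-inducible degron tag. That clone was transduced to express the plant receptor OsTir1 from an EF1a promoter, and cells that lost YPet on brief treatment were sorted, so that the auxin indole-3-acetic acid (IAA) triggers degradation of SRCAP. SYAT cells were left untreated as control, with the auxin antagonist auxinole in the medium, or received 500 µM IAA, for durations of 2, 4, 6 and 8 h (10 libraries). CGR8 cells, which lack the tag and the receptor, were left untreated or were given 500 µM IAA for 4 h (4 libraries). SYAT cells with or without 1 h of 500 µM IAA were sorted in early G1 (EG1) or late G1 (LG1) by DNA content and a fluorescent reporter degraded in mitosis (8 libraries). SYAT-derived cells carried a doxycycline-inducible wild-type (wtSRCAP) or catalytically dead (cdSRCAP) SRCAP fused to mCherry, a single clone of each (8 libraries). All were given 1 µg/mL doxycycline for 24 h, and were left in auxinole without IAA (control) or received 500 µM IAA for 4 h. By the study's methods they were then sorted on high and matched mCherry before RNA isolation. All cells were in serum and LIF medium. The study's methods describe the replicates as biological duplicates, and p-values measure the spread between them.

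Transfer RNAs are modified after transcription by enzymes that act at fixed positions of the molecule. Modifications of the anticodon's wobble base and of the base next to the anticodon tune how codons are read, and those in the body of the tRNA contribute to its folding and stability. At the wobble position, the heterodimer of ADAT2, its catalytic subunit, and ADAT3 converts adenosine to inosine. The Elongator complex starts the side chain of wobble uridines, ALKBH8 with its partner TRMT112 completes the methyl ester and can hydroxylate it, and CTU1 and CTU2 add sulfur. Several enzymes of the set (ALKBH1, NSUN3, MTO1, TRMU, TRMT10C) act on mitochondrial tRNAs, and NSUN4 and NSUN5 are known mainly for ribosomal RNA.

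Adat2 and Alkbh8 are the genes on which the results turn, and their promoters are shown because they held fewer CG dinucleotides than those of most members. In the GRCm38 build, Adat2 (ENSMUSG00000019808.8) lies on chromosome 10 and Alkbh8 (ENSMUSG00000025899.14) on chromosome 9, both on the + strand. RefSeq promoter windows of GRCm38.p6, 250 bases before to 50 bases after an annotated start, were found for 40 of the 49 members (51 windows). The windows of Adat2 (chr10:13552657-13552956) and Alkbh8 (chr9:3334981-3335280) are printed 5′ to 3′ on the + strand, with capitals at CCAAT or its reverse complement ATTGG.
Adat2: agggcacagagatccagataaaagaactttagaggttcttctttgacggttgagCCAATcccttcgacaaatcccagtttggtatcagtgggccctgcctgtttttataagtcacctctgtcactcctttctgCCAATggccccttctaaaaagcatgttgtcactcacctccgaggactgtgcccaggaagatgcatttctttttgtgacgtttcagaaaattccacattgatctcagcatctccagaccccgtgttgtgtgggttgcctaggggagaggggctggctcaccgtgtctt
Alkbh8: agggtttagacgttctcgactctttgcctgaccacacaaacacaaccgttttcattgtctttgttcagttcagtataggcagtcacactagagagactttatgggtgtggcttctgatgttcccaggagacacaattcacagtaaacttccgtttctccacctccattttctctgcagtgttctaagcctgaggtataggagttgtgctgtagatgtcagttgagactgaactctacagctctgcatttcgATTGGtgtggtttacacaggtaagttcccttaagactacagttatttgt
The Adat2 window had a GC content of 49.0% and 6 CG dinucleotides, with CCAAT 196 and 117 bases before the start. The Alkbh8 window had a GC content of 43.7% and 5 CG dinucleotides, with ATTGG just after its RefSeq start. The gene start of Alkbh8 given below lies upstream of that RefSeq start, within the window. Over the 51 windows of members, the median GC content was 59.0% and the median number of CG dinucleotides 21, against 52.7% and 7 over all 32851 windows. CCAAT, on either strand, was in 37.3% of the members' windows and in 37.4% of all windows. A match of letters is a description and not a bound site.

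The annotation places Adat2 at chr10:13552894-13563376 (6 exon blocks, 1466 exonic bases). It is head to head with Pex3, a gene of peroxisome biogenesis on the opposite strand, and the starts of both genes overlap by 248 bases. Alkbh8 lies at chr9:3335140-3391154 (16 exon blocks, 8740 exonic bases) and contains the small nucleolar RNA gene Gm24918 on its own strand. Of the 49 members, 25 overlapped another gene, and reads in such overlaps may not be assigned to the right gene. Adat3, the partner of Adat2, had 0 counts in every library, and it overlaps Scamp4 and Gm49322 on the same strand, so that nothing can be said of its transcript.

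Exon totals were 17540823 to 22873893 counts per library in the SYAT time course, 45617992 to 60214521 in CGR8, 19740778 to 26672402 in the sorted cells and 12236493 to 26369773 in the wtSRCAP and cdSRCAP cells, where replicate 1 of wtSRCAP with IAA was the shallowest. The members took 0.162% to 0.282% of exon counts. All 10 ES cell markers (among them Pou5f1, Sox2 and Nanog) were detected in every library, while summed levels of the fibroblast, primitive endoderm and trophoblast markers reached at most 9.31, 3.41 and 5.54 exon CPM per kb of exon, with Postn at 0 throughout. The 4 neural markers summed to 25.3 to 93.3, led by Tubb3 or Nes. Srcap, whose protein and not transcript is the target of the degron, differed from control by log2 0.13 to 0.32 in the SYAT time course, which checks nothing of the protein. In bulk RNA, fewer expressing cells and less RNA per cell cannot be told apart. Among genes of more than 3 exons that had 100 or more exon counts, the intron column was 0 for 10.4% to 11.4% in SYAT and EG1 libraries, against 0.150% to 0.258% with 1 to 5 counts. The corresponding ranges were 8.69% to 12.4% and 0.932% to 2.83% in the other libraries. An intron value of 0 is therefore given as a listed value and not as absence of RNA.

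The members spanned a wide range of steady level. In SYAT control, Nsun2, which methylates cytosines in many tRNAs, was highest at 60.5 exon CPM (counts scaled to the effective library size) per kb of exon, followed by Elp3, the catalytic subunit of Elongator, at 41.3 and Dus1l at 30.2. Adat2, at 6.70 and rank 25, was the median member, and Alkbh8 was at 5.64, rank 26, while Trmt112, the partner of Alkbh8, was at 25.1, rank 5. Nsun7 was lowest of the detected members at 0.04. Nsun2 and Elp3 held the top of the order in all 6 control groups.

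**Figure D1:**
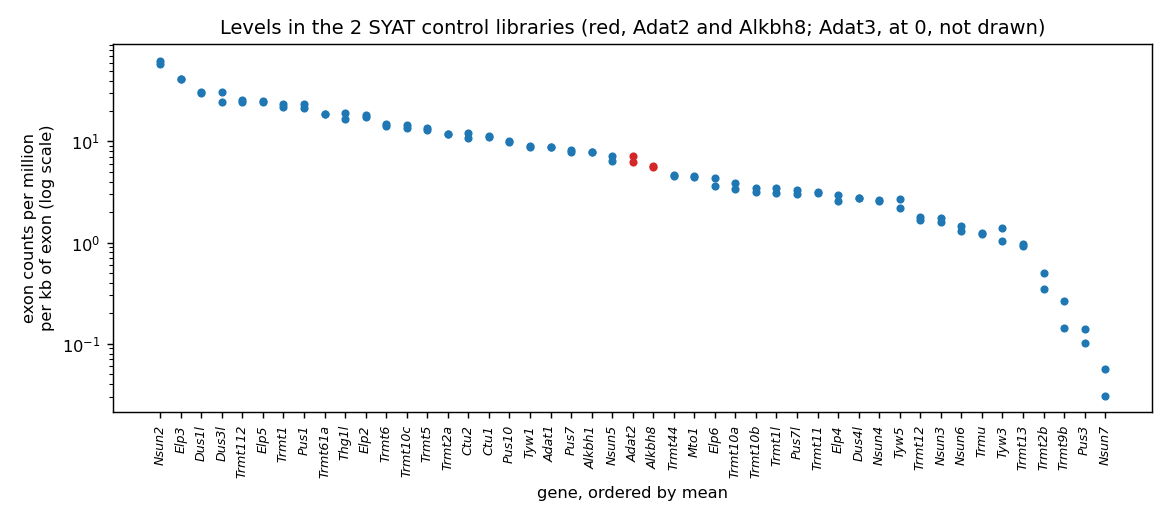
Exon level of the members in both SYAT control libraries (1 point per library), as exon CPM per kb of exon on a log axis, with genes ordered by their mean; Adat3, at 0, is not drawn. Nsun2 (60.5) and Elp3 (41.3) lead, and Adat2 and Alkbh8, in red, sit in the middle of the order.

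The SYAT time course asked how transcription responds as SRCAP is lost. Adat2 stood at 215.1 and 186.5 normalized exon counts in the control libraries. It stood at 148.2 and 158.8 with 2 h of IAA, 109.0 and 86.5 with 4 h, 77.1 and 87.8 with 6 h, and 68.0 and 60.5 with 8 h. At each time both treated libraries lay below both controls, and the 8 h libraries were the lowest of the course. The log2 differences from control were -0.39 ± 0.23 (SE), -1.04 ± 0.23, -1.28 ± 0.24 and -1.64 ± 0.24 at 2, 4, 6 and 8 h. Alkbh8 stood at 1017.7 and 998.5 in control, 696.3 and 778.1 with 2 h, 551.7 and 544.8 with 4 h, 496.8 and 425.4 with 6 h, and 554.1 and 579.4 with 8 h. It too was below control in every treated library, with its lowest value at 6 h. Its log2 differences were -0.45 ± 0.14, -0.88 ± 0.14, -1.13 ± 0.15 and -0.83 ± 0.14.

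The intron columns of both genes were lower as well. The raw Adat2 intron counts were 133 and 180 in control, 67 and 110 at 2 h, 3 and 19 at 4 h, 0 in both libraries at 6 h, and 0 and 9 at 8 h, for which no fold is given because of the listed zeros. Alkbh8 introns were at 1322.8 and 1370.3 normalized counts in control and between 642.5 and 1026.1 in all treated libraries. The log2 differences of Alkbh8 introns were -0.49, -0.75, -0.98 and -0.72 at the successive times. The intron columns of SYAT and of EG1 also held counts for genes without introns. In these libraries the intron column of single-exon genes was 0 for 33.9% to 51.3% of them. The range was 99.7% to 99.9% in the CGR8, LG1, wtSRCAP and cdSRCAP libraries. Exon and intron values of SYAT and of EG1 are therefore not treated as independent. Pex3, the head-to-head neighbour of Adat2, had exon log2 differences of -0.59, -0.78, -1.52 and -0.85.

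**Figure D2:**
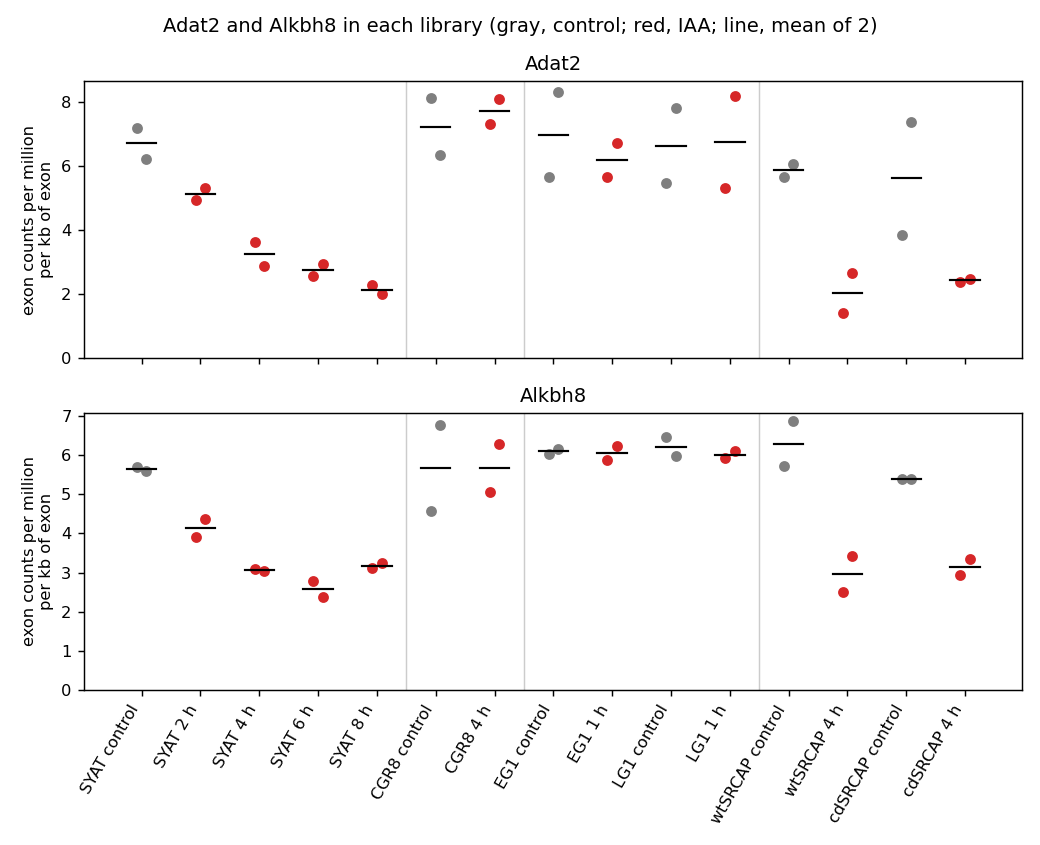
Exon CPM per kb of exon of Adat2 and Alkbh8 in each library (gray, control; red, IAA; line, mean of 2) of all 15 groups, with vertical lines between the 4 tables, which were normalized separately. In SYAT, wtSRCAP and cdSRCAP both genes lie below control in every treated library, and in CGR8 they overlap control.

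The comparison of 8 h with 2 h does not use the control libraries, and it was tested. Adat2 was lower at 8 h than at 2 h by log2 -1.26 ± 0.24, with an unadjusted p of 0.000328 and a Benjamini-Hochberg adjusted p of 0.53 in edgeR's quasi-likelihood test. Alkbh8 differed by -0.38 ± 0.14 (unadjusted p = 0.025, adjusted p = 0.894). Elp4, an Elongator subunit, had 186.1 and 175.3 exon counts at 2 h and 118.0 and 125.1 at 8 h, a log2 difference of -0.57 ± 0.21 (unadjusted p = 0.0223, adjusted p = 0.88). No gene of the 19205 tested passed the adjusted threshold of 0.05 with a log2 difference past 0.5 in either direction. At an unadjusted p below 0.05, Adat2 and Elp4 were the members among the 481 genes lower at 8 h (2.5% of genes tested), and 0 members were higher (1.5%). In the introns, where the adjusted rule called 0 members (0.00679% of genes lower), Adat2, with its listed zeros, was the member lower by the unadjusted rule (1.86%) and 0 were higher (1.34%).

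Across the time course, 46 members passed the filter on low exon counts. Under the adjusted rule a call needed an adjusted p below 0.05 and a log2 difference past 0.5, and under the unadjusted rule the same difference and an unadjusted p below 0.05. The 6 h counts are a description from which nothing is read, since the members were proposed on that comparison. The adjusted rule called 7 genes lower (0.0364%) and 6 higher (0.0312%) at 6 h. Among the lower was 1 member, a gene on which the set was proposed. Without replicate 1 of 6 h it called 13 members, 5 lower and 8 higher, among 3197 genes, and without replicate 2 of 6 h or either control library it called 0 genes. At 2, 4 and 8 h the adjusted rule called 0 members in either direction, against 0, 0 and 1 gene of all tested (0.00521% at 8 h, higher). By the unadjusted rule the members lower were 2 at 2 h (1.92% of all genes), 5 at 4 h (4.51%), 8 at 6 h (6.71%) and 7 at 8 h (6.8%). From 4 h on these counts hold Adat2 and Alkbh8, which were chosen for being low, and they are no independent support for the set. The members higher were 0 at 2 h (0.916%), 4 h (2.18%) and 6 h (5.73%) and 1 at 8 h (4.07%).
Of the 40 members tested in introns, Adat2 and Alkbh8 among them, the adjusted rule called 0 at every time (0.00679% of genes lower and 0.00679% higher at 6 h, and 0.00679% lower at 8 h). By the unadjusted rule 3 were lower at 2 h (2.61%; 1.36% of genes higher), 6 at 4 h (4.91%), 6 at 6 h (6.9%; 5.12% higher) and 5 at 8 h (6.62%), while 1 was higher, Alkbh1 at 8 h (4.5%).

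Small differences below control prevailed among the members. The exon median over the members was -0.10 at 2 h, -0.20 at 4 h, -0.07 at 6 h and -0.15 at 8 h on the log2 scale, with 38, 35, 25 and 34 of 46 members below 0. The share below 0 was 82.6% at 2 h, 76.1% at 4 h, 54.3% at 6 h and 73.9% at 8 h, against 49.4%, 47.6%, 49.1% and 46.8% over all genes tested. The shift was not particular to the members. Of 43 other tRNA modification genes, which the symbols did not select, 32, 33, 21 and 29 were below 0 at these times. Their medians were -0.10, -0.13, 0.04 and -0.11. The 4 times share their control libraries, and 21 of 46 members were below control at all of them while 5 were above at all. Over all genes tested, 27.1% were below and 29.5% above at all 4 times.

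Nsun6, Trmt10b, Pus7l and Trmt5 are described because of a tally among the members other than Adat2 and Alkbh8. Their exon columns were below control at an unadjusted p under 0.05 in at least 3 of the 4 times. The same held for 3.97% of all genes tested. That tally counts the 6 h comparison and shares 1 pair of control libraries, and nothing is read from it. Nsun6, which methylates a cytosine of the acceptor stem, had 148.9 and 132.5 exon counts in control and 66.8 and 71.5 after 2 h, where both libraries lay below both controls. Its log2 difference was -1.02 ± 0.29 at 2 h (unadjusted p = 0.00601, adjusted p = 0.907) and -0.88 ± 0.29 at 4 h (unadjusted p = 0.013, adjusted p = 0.366). At 8 h it was -0.62. Trmt10b, a purine methyltransferase, had 185.1 and 168.8 counts in control, 100.2 and 92.5 at 4 h and 87.0 and 86.5 at 8 h. Trmt10b differed by -1.03 ± 0.30 at 8 h (unadjusted p = 0.00588, adjusted p = 0.165). Its raw intron column was listed at 0 in 1 library each of 4 h and 8 h, so no intron fold is given.

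Trmt5, which methylates the guanosine next to the anticodon and starts the wybutosine pathway, had 570.9 and 588.3 exon counts in control and 395.5 to 452.3 at 2, 4 and 8 h. The groups did not overlap, and its log2 differences were -0.49, -0.40 and -0.47 at these times, below the size threshold (unadjusted p = 0.015 at 8 h, adjusted p = 0.241). All 5 wybutosine genes were below control at 4 h and at 8 h, and of them Trmt5 alone at 4 h and Trmt5 and Trmt12 at 8 h had an unadjusted p under 0.05. At 6 h 4 of the 5 were below control, and in CGR8 with IAA 1 was. In wtSRCAP and in cdSRCAP 4 were below, none with an unadjusted p under 0.05. Pus7l, named as a pseudouridine synthase, differed by -0.53 at 4 h and -0.59 at 8 h (unadjusted p = 0.0227, adjusted p = 0.276). Of the 12 tested members listed with the wobble uridine enzymes, a list that also holds Alkbh1, 10 were below control at 8 h and 5 at 6 h, and in CGR8, which lacks the degron, 10 were below control with IAA. In this list Elp4 stood at -0.62 at 8 h (unadjusted p = 0.0148, adjusted p = 0.239).

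Alkbh1, an oxygenase acting on methylated adenosine and cytosine in tRNA, was the member with the highest log2 difference at 8 h. Its exon counts were 1059.1 and 1064.3 in control and 1220.3 and 1853.2 at 8 h, a difference of 0.53 ± 0.19 (unadjusted p = 0.0204, adjusted p = 0.266), and the treated libraries lay far apart from each other. The gene overlaps a microRNA, a small nucleolar RNA and Gm29362 on its own strand. Trmt112 had 612.3 and 651.6 exon counts in control and 560.9 to 906.0 in the treated libraries, which overlapped control. No exon comparison gave Trmt112 an unadjusted p below 0.05.

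**Figure D3:**
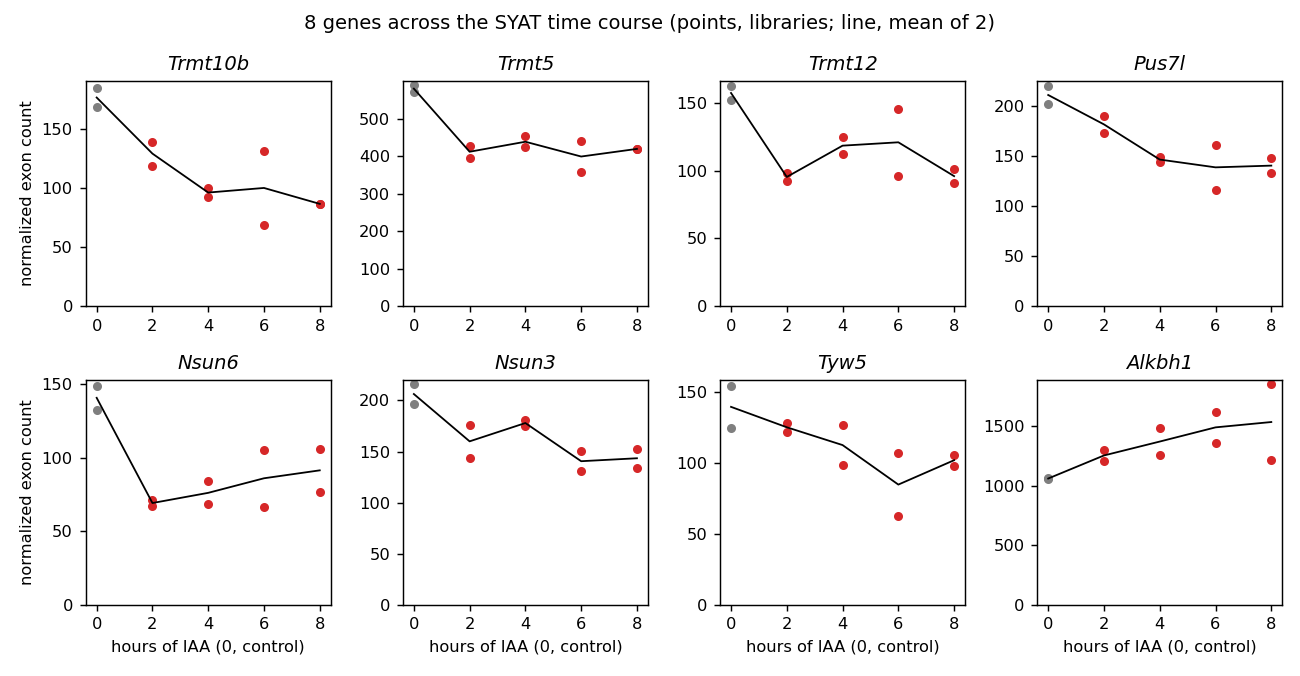
Normalized exon counts of 8 members against hours of IAA in SYAT cells (gray points, control libraries; red points, treated libraries; line, mean of 2), each axis starting at 0. Trmt10b, Trmt5, Trmt12, Pus7l, Nsun6, Nsun3 and Tyw5 have group means below control at every time, and Alkbh1 has means above it. The 8 were picked with their values known and do not represent the members. Of the 46 members tested, 21 were below control at every time, as were 27.1% of all genes tested.

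CGR8 cells, which lack the degron, were used to ask what IAA does in itself. Adat2 had 625.9 and 490.4 exon counts in control and 565.1 and 623.6 after 4 h. Alkbh8 had 2102 and 3119 in control and 2334 and 2894 with IAA. Both genes overlapped their controls. The log2 differences were 0.09 ± 0.20 (95% interval -0.37 to 0.55) for Adat2 and 0.00 ± 0.21 (-0.47 to 0.47) for Alkbh8. The SYAT differences of both genes at 4 h lay below these intervals, but both genes were chosen on the SYAT control libraries. The tables were normalized separately, the lines also differ in the receptor, and the difference between lines was not tested. The adjusted rule called 0 of 48 members (0.00988% of genes lower, 0% higher). Trmt5 had 1223.5 and 1237.8 counts in control and 1646.8 and 2106.4 with IAA, a difference of 0.61 ± 0.17 (unadjusted p = 0.00632, adjusted p = 0.54), opposite in sign to SYAT, a contrast that was not tested. It was the single member among genes higher at an unadjusted p under 0.05 (3.55%), with 0 members lower (2.25%). In CGR8 introns the adjusted rule called 0 of 43 members (0.00733% of genes lower, 0.0147% higher). The unadjusted rule put Dus4l (1.11 ± 0.33) and Nsun3 (0.58 ± 0.21) higher (2.11%) and 0 members lower (1.98%). Trmt10a, a guanosine methyltransferase, was at 1200 and 1329 in control and at 1522 and 1955 with IAA (log2 0.46 ± 0.17, unadjusted p = 0.0282, adjusted p = 0.54). Trmt61a, the catalytic subunit of the tRNA adenosine methyltransferase, was at 3626 and 3214 in control and at 2709 and 2453 with IAA (-0.41 ± 0.14, unadjusted p = 0.0203, adjusted p = 0.54). Pex3 differed by 0.63 ± 0.21 (unadjusted p = 0.0149, adjusted p = 0.54). Over the members, the exon median was -0.03, with 28 of 48 members below 0 (58.3%).

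The wtSRCAP and cdSRCAP cells gave measurements that the choice of members did not use. They are not repeats of plain SRCAP loss. IAA targets the tagged endogenous SRCAP, while the induced SRCAP fused to mCherry was expressed in the same cells. The study reports that wtSRCAP offset the changes in transcription more than cdSRCAP did. In wtSRCAP cells, Adat2 had 152.3 and 163.6 exon counts in control and 37.7 and 71.9 after 4 h of IAA, and the groups did not overlap. The log2 difference was -1.49 ± 0.42 (95% interval -2.44 to -0.54, unadjusted p = 0.00598, adjusted p = 0.641). Alkbh8 had 918.8 and 1101.7 counts in control and 401.6 and 549.4 with IAA, a difference of -1.08 ± 0.23 (95% interval -1.61 to -0.56, unadjusted p = 0.00108, adjusted p = 0.597). Neither passed the adjusted threshold in edgeR's quasi-likelihood test, which called 1 gene of 19111 lower (0.00523%) and 0 members. With the replicate number as a block, the adjusted p in the same test was 0.0106 for Adat2 and 0.00129 for Alkbh8, which were the 2 members called, both lower, among 1.47% of genes lower and 1.74% higher. Both were below control in both libraries. At an unadjusted p below 0.05, 3 members were lower (4.39% of genes), namely Adat2, Alkbh8 and Trmt10b (-0.85 ± 0.35, unadjusted p = 0.0365, adjusted p = 0.666), and 0 were higher (2.76%).

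In cdSRCAP cells, both genes were below control as well. Adat2 had 103.8 and 198.6 exon counts in cdSRCAP control and 64.4 and 66.8 with IAA, again without overlap but with controls far apart. Without cdSRCAP control replicate 2 the log2 difference was -0.66 (unadjusted p = 0.187, adjusted p = 0.735 in edgeR's quasi-likelihood test). With all libraries it was -1.21 ± 0.41 (95% interval -2.14 to -0.28, unadjusted p = 0.0161, adjusted p = 0.751). Alkbh8 had 865.2 and 867.5 counts in control and 471.1 and 536.7 with IAA, a difference of -0.78 ± 0.23 (95% interval -1.30 to -0.26, unadjusted p = 0.00772, adjusted p = 0.735). Elp6, an Elongator subunit, had 222.9 and 206.4 counts in control and 76.9 and 127.0 with IAA (log2 -1.07 ± 0.34, unadjusted p = 0.0113, adjusted p = 0.751). Its treated libraries lay apart, and the log2 difference was -0.76 without IAA replicate 1 and -1.48 without IAA replicate 2. With the replicate block in edgeR, the adjusted p was 0.0605 for Adat2, 0.0159 for Alkbh8 and 0.0318 for Elp6, and the latter 2 were the members called (1.28% of genes lower, 0.523% higher). Without the block the adjusted rule called 0 genes, and the unadjusted rule put Adat2, Alkbh8 and Elp6 among the genes lower (3.92%), with 0 members higher (1.56%).

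Whether IAA acted differently in wtSRCAP and cdSRCAP cells was tested by an interaction. The difference between the effects was 0.28 ± 0.58 for Adat2 (95% interval -1.04 to 1.59, unadjusted p = 0.646) and 0.30 ± 0.33 for Alkbh8 (-0.43 to 1.03, unadjusted p = 0.379). These intervals are wide and do not show that the clones act alike. No member had an unadjusted p below 0.05 for the exon interaction (0.372% of genes lower, 0.413% higher). In the intron columns, Trmt9b alone did, at -1.70 ± 0.71 (unadjusted p = 0.0382; 1.67% of genes lower).

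In the introns of the same cells, Adat2 and Alkbh8 lay below control in both clones. Adat2 differed by -1.34 ± 0.45 in wtSRCAP (unadjusted p = 0.0142, adjusted p = 0.265) and by -1.20 ± 0.45 in cdSRCAP (unadjusted p = 0.024, adjusted p = 0.344). Alkbh8 differed by -0.63 ± 0.19 (unadjusted p = 0.00725, adjusted p = 0.217) and -0.69 ± 0.18 (unadjusted p = 0.0038, adjusted p = 0.182). Elp4 introns had 869.7 and 726.9 normalized counts in wtSRCAP control and 488.6 and 509.1 with IAA, a difference of -0.68 ± 0.15 (unadjusted p = 0.0012, adjusted p = 0.12). In cdSRCAP the Elp4 difference was -0.46. Trmt2b, a uridine methyltransferase, had 62.4 and 64.6 intron counts in wtSRCAP control and 20.36 and 21.02 with IAA, and 43.1 and 85.1 against 28.2 and 28.5 in cdSRCAP, all of them low. It differed by -1.61 ± 0.44 and -1.18 ± 0.41 in the introns of wtSRCAP and cdSRCAP (unadjusted p = 0.0048 and 0.0177, adjusted p = 0.197 and 0.31). Trmt10b introns differed by -1.19 ± 0.33 in cdSRCAP (unadjusted p = 0.00494, adjusted p = 0.2).
The adjusted rule called 0 members in either intron comparison (0.236% of genes lower in wtSRCAP and 0.213% in cdSRCAP), and with the replicate block it called Elp4 in wtSRCAP (1.36% of genes lower) and Alkbh8 in cdSRCAP (1.74%). By the unadjusted rule 5 members were lower in wtSRCAP (5.87% of genes) and 6 in cdSRCAP (6.89%). The comparison of cdSRCAP with wtSRCAP after IAA placed Tyw5 at -0.86 ± 0.24 (unadjusted p = 0.00583, adjusted p = 0.313), lower in cdSRCAP, among 4 members lower (3.84%) and 1 member higher (4.58%), which was Elp4. Tyw5 introns were lower in cdSRCAP than in wtSRCAP without IAA too, at -0.60 ± 0.24 (unadjusted p = 0.0302, adjusted p = 0.633), where Tyw5 and Trmt1 were the members lower (1.79% of genes) and 0 were higher (4.16%).

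Adat2 and Pex3, which share a start region, were both below control. Pex3 exon levels differed by -1.14 ± 0.48 in wtSRCAP (unadjusted p = 0.039, adjusted p = 0.666) and -1.34 ± 0.48 in cdSRCAP (unadjusted p = 0.0192, adjusted p = 0.766). In CGR8 only Pex3 of the pair had an unadjusted p under 0.05, and there it was above control.

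**Figure D4:**
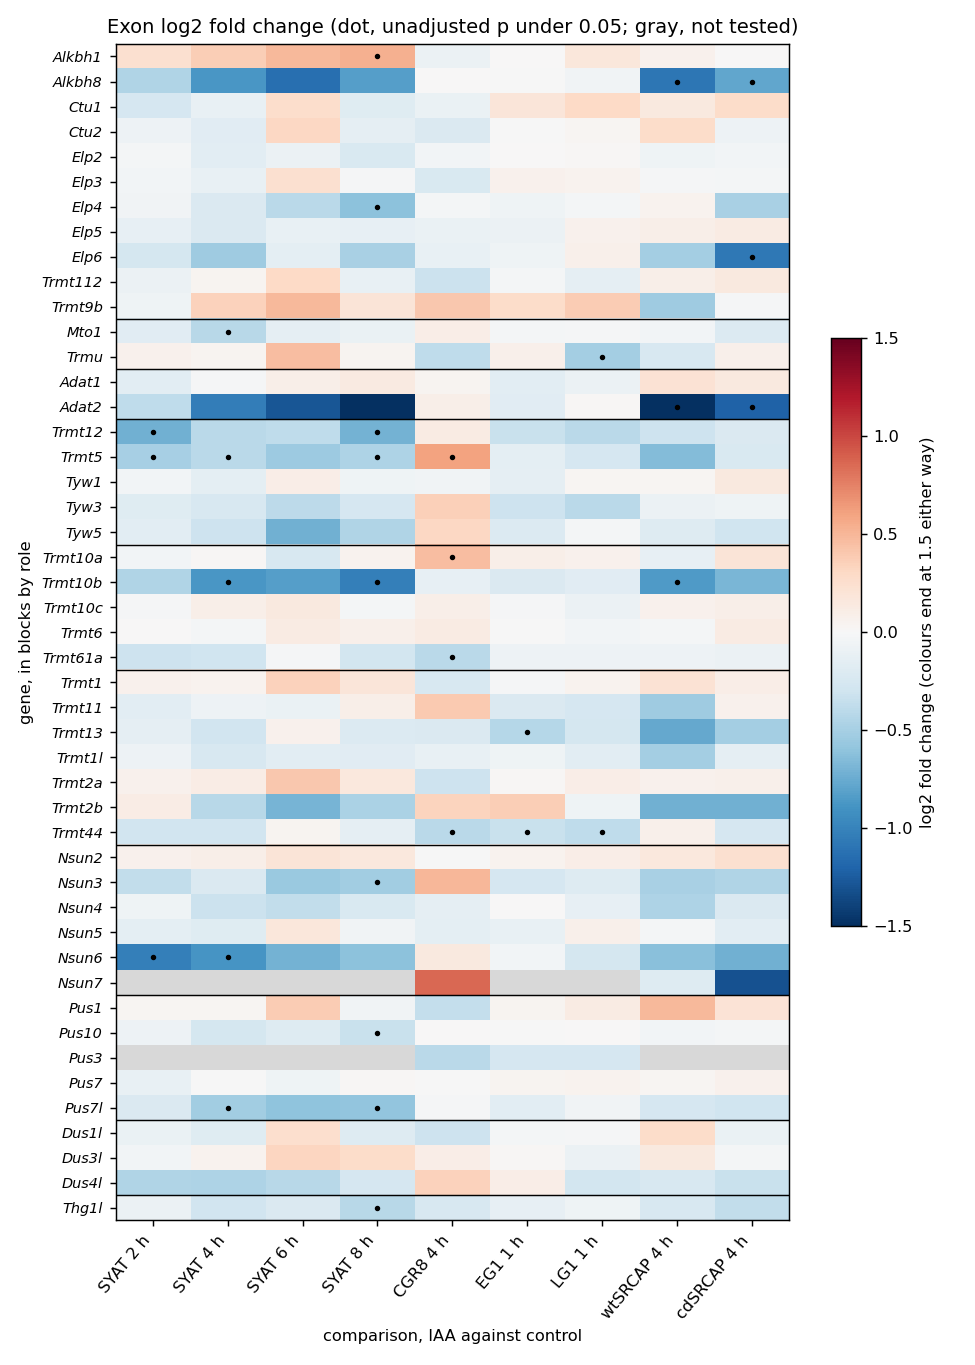
Log2 exon differences of the members (rows, in blocks by role) in each comparison of IAA with control (columns), blue below and red above control, gray not tested, with dots at an unadjusted p under 0.05. No dots are drawn at 6 h, nor for Adat2 and Alkbh8 in the SYAT comparisons with control, since the choice of members used those libraries. Adat2 and Alkbh8 are dark blue from 4 h on in SYAT and in wtSRCAP and cdSRCAP, and pale in CGR8 and the sorted cells.

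In sorted G1 cells after 1 h of IAA, the exon values of Adat2 and Alkbh8 lay near their controls. Over the 8 libraries, Adat2 ranged from 177.2 to 277.0 normalized exon counts and Alkbh8 from 1169 to 1284, and treated libraries overlapped control for both in both phases. Adat2 differed by -0.17 in EG1 (unadjusted p = 0.573) and 0.02 in LG1, and Alkbh8 by -0.01 and -0.05. Alkbh8 introns had 955.2 and 955.6 normalized counts in EG1 control and 822.8 and 902.6 with IAA, a difference of -0.15 ± 0.16 (unadjusted p = 0.387, adjusted p = 1). In LG1 they had 638.7 and 613.2 in control and 456.5 and 495.6 with IAA, a difference of -0.40 ± 0.16 (unadjusted p = 0.0449, adjusted p = 1), and neither phase overlapped. A smaller size threshold of 0.25 on the log2 scale with an unadjusted p under 0.05 was used for these cells. It put Trmt13 (-0.43 ± 0.19) and Trmt44 (-0.34 ± 0.14) lower in EG1 (1.03% of genes) and Trmu (-0.51 ± 0.21) and Trmt44 (-0.38 ± 0.14) lower in LG1 (0.733%). Trmt44, a uridine methyltransferase, had 531.7 and 492.8 exon counts in EG1 control and 400.5 and 409.2 with IAA. In LG1 it had 671.6 and 578.6 in control and 513.0 and 448.9 with IAA, and neither comparison overlapped. Trmt44 was also below control in CGR8, at -0.40 ± 0.15 (unadjusted p = 0.0282, adjusted p = 0.54), which lack the degron. In LG1 introns 6 members were lower by the smaller threshold (2.7% of genes), namely Dus3l (-0.75), Dus4l (-0.68), Dus1l (-0.59), Mto1 (-0.58), Trmt44 (-0.48) and Alkbh8 (-0.40), with an adjusted p of 1 for each. Of the members, 1 was left without LG1 control replicate 2 or LG1 IAA replicate 1, and 3 without LG1 control replicate 1. With a replicate block the smaller threshold put 5 members past it in EG1 exons (6.04% of genes in either direction), 5 in LG1 exons (4.2%), 4 in EG1 introns (4.32%) and 11 in LG1 introns (9.02%). Intron columns of EG1 and LG1 differed in how they were built, so that no comparison of phases is given for introns. In exon columns, LG1 control against EG1 control called 0 members by the smaller threshold (0.733% of genes lower, 0.709% higher), and nothing is read from that count.

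Several of the lowest members had few CG dinucleotides in their promoter window, a pattern noticed after their values were seen. Counting each gene's window with the most CG dinucleotides, the 5 members with at most 11 CG were Alkbh8, Adat2, Trmt10b, Nsun7 and Trmt2b. The grouping depends on the window, since Pus7, Trmt13, Thg1l and Nsun6 also have a window with at most 11. Of the 5, Adat2 and Alkbh8 were chosen for being low in SYAT, and Nsun7 had the lowest level of the detected members in SYAT control. In wtSRCAP the median log2 exon difference of the 5 was -0.85, against -0.05 over 33 members with more CG, and in cdSRCAP it was -0.78 against -0.08. Over all genes with a window the medians were -0.07 and 0.00 in wtSRCAP and -0.03 and 0.03 in cdSRCAP. In CGR8 the medians of the members were 0.09 and -0.08, in EG1 -0.09 and -0.04, and in LG1 -0.06 and -0.06. Nsun7 was not tested in the sorted cells, so that the first median of EG1 and of LG1 is over 4 members. Across members, Spearman's rho between the number of CG and the difference was 0.31 in wtSRCAP and 0.40 in cdSRCAP (38 members each) and -0.26 in CGR8 (39 members), as a description of genes within the same libraries. It was 0.02 in both EG1 and LG1 (38 members each), and 0.18 to 0.37 over the SYAT times (37 members), the libraries on which the set was proposed. Over all genes with a window, rho was 0.09 in wtSRCAP and in cdSRCAP, -0.11 in CGR8, 0.06 in EG1 and in LG1, and 0.04 to 0.07 over the SYAT times. Counting the window with the fewest CG instead, rho across members was 0.33 in wtSRCAP, 0.32 in cdSRCAP and -0.18 in CGR8. It was then 0.11 in EG1 and -0.06 in LG1.

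**Figure D5:**
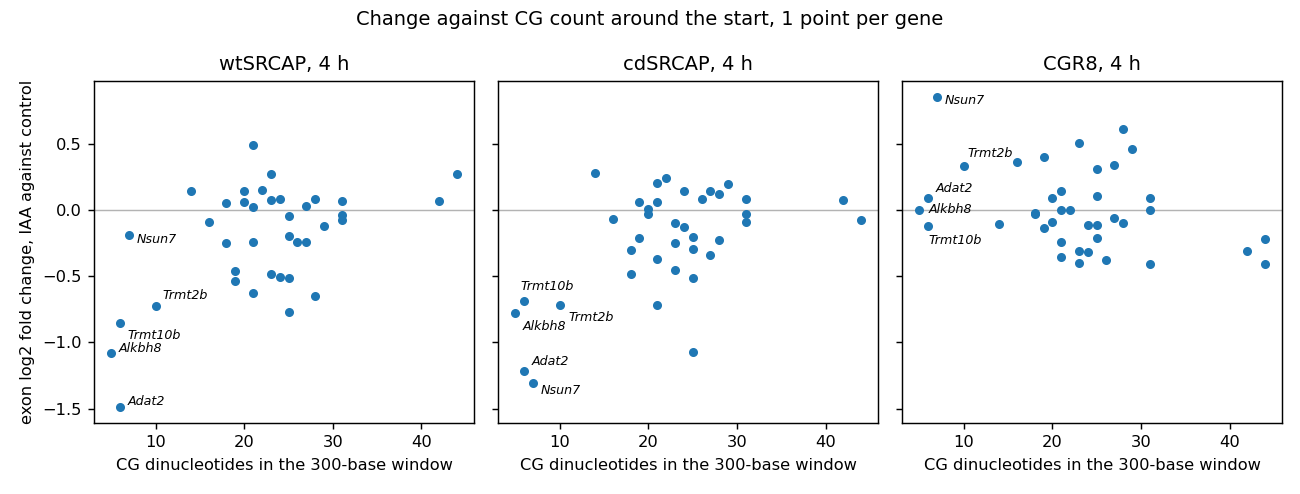
Log2 exon difference of each member against the number of CG dinucleotides in its promoter window (the window with the most), for wtSRCAP, cdSRCAP and CGR8. Adat2 and Alkbh8 lie at the left and low in wtSRCAP and cdSRCAP, and near 0 in CGR8.

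Other tRNA modification genes that the symbols did not select were read for comparison (43 of 45 listed were in the tables). At an unadjusted p below 0.05 with a log2 difference past 0.5, 3 of these were lower at 4 h and 4 at 8 h in SYAT, 0 in wtSRCAP and 3 in cdSRCAP, and none passed the adjusted threshold. The share of all genes lower by this rule was 4.51% at 4 h, 6.8% at 8 h, 4.39% in wtSRCAP and 3.92% in cdSRCAP. Dtwd2, named for tRNA aminocarboxypropyl transfer, was lower at 8 h by -0.71 ± 0.25 (unadjusted p = 0.017, adjusted p = 0.253) and in cdSRCAP by -0.70 ± 0.27 (unadjusted p = 0.0302, adjusted p = 0.822). Mettl1, the guanosine methyltransferase of the variable loop, was lower at 8 h by -0.68 ± 0.17 (unadjusted p = 0.0029, adjusted p = 0.131). Osgepl1, which makes threonylcarbamoyladenosine in mitochondrial tRNA, differed by -0.79 ± 0.25 at 8 h.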

How the data were processed

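Nuclear RNA was isolated and sequenced by the authors in biological duplicates with a directional kit. STAR alignment to mm10 was done by the authors, and featureCounts gave reads in exons (GENCODE vM25) and in introns, defined by taking the exons out of each gene body. They deposited whole-number counts per gene with an exon and an intron column per library. The deposited comparison tables, which hold log2 fold changes and p-values, were not used. Gene positions were read from GENCODE vM21, in which all 49 members had the same identifier and version as in the tables.

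Samples were grouped by the labels. Each of the 4 tables was fitted once per column with edgeR 4.0.16 (TMM, filterByExpr by group with a minimum count of 10 and a total of 15, quasi-likelihood test) in R 4.3.3, with Benjamini-Hochberg adjustment over all genes tested. A call needed an adjusted p under 0.05 and a log2 difference past 0.5. In sorted cells an unadjusted p under 0.05 and a log2 difference past 0.25 was used. Normalized counts are counts divided by the effective library size and scaled within a table. Errors of fold changes are standard errors. Replicate numbers match between groups in the labels, which name no shared batch. Deviations of same-numbered libraries correlated over every pair of groups in sorted cells (0.372 to 0.586 in exons, 0.141 to 0.638 in introns) and in wtSRCAP and cdSRCAP exons (0.259 to 0.376), so fits with the replicate number as a block are printed beside those results where they change a call. Exon totals were 12236493 to 60214521 counts per library. The fit was tested on simulated data.

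The members and lists were chosen with earlier results of these data known. Named genes were Adat2, Alkbh8, Adat3, Trmt112, members called, the 3 lowest and 3 highest members at an unadjusted p under 0.05 in a comparison, members at such a p in 3 of 4 times, head-to-head neighbours within 1000 bases of Adat2 or Alkbh8, and the extremes of level. Not every such gene is described in the text. For 1 member, counted among the 49 and in the sums over members, no value is reported or drawn here. Alternatives were DESeq2 1.42.0, another scaling, no filter, a fit of the compared groups alone, a replicate block and leaving out each library.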

Additional observations from a re-analysis of the deposited data

How the results depend on the processing

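Under the alternatives, 31 of 1308 values of single members and 26 of 254 medians over members changed sign. No changed value of a single member had an adjusted p under 0.05 (smallest 0.727), and the medians that changed sign were at most 0.11 in size. Of the single members' values, 1008 stayed on their side of an unadjusted p of 0.05, 296 lost it and 4 gained it. The values cover only members under that p in edgeR's quasi-likelihood test of a comparison, with Adat2 and Alkbh8 added in each. Other members could therefore keep or lose the threshold but not gain it. Of the counts of members called, 79 moved, by over 1.5 times or to or from 0, and 184 did not. The members called in edgeR's quasi-likelihood test were 1 at 6 h in SYAT exons, a gene on which the set was proposed. By the unadjusted rule with 0.25 they were 2 in EG1 exons, 2 in LG1 exons and 6 in LG1 introns with IAA against control. The count was 0 in the other comparisons with alternatives, LG1 against EG1 exons included. SYAT counts that hold Adat2 and Alkbh8 are no independent support, since both were chosen on these libraries.

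With shrunken DESeq2 the count was 2 in SYAT exons and 2 in introns at each of 4, 6 and 8 h, 1 for 8 h against 2 h in exons and in introns (Adat2), 1 in wtSRCAP introns, and 0 in EG1 and 0 in LG1 exons. This fit called 0.698%, 2.03% and 1.7% of all genes lower in SYAT exons at these times and 1.03%, 2.08% and 1.92% in introns. For 8 h against 2 h the shares lower were 0.0833% in exons and 0.0747% in introns, and in wtSRCAP introns 0.913%. Without a filter on low counts the count of members was 1, 2 and 2 in SYAT exons at 4, 6 and 8 h, 1 in introns at 6 h and 8 h, 1 in CGR8 exons, 2 in wtSRCAP introns, 0 in EG1 and 1 in LG1 exons, and 1 in EG1 introns. Of all genes, 0.131%, 1.1% and 0.722% were then called lower in SYAT exons at these times. The shares lower were 0.169% and 0.165% in introns at 6 h and 8 h, and 1.4% in wtSRCAP introns. With the compared groups alone in the fit the count of members was 0 in SYAT at 6 h, where no gene at all was called, 0 in EG1 and 0 in LG1 exons, and 1 in LG1 introns. With RLE scaling it was 0 in EG1 and 1 in LG1 exons. The EG1 intron column minus its exon column, chosen after seeing the data, gave 3. For CGR8 and the sorted cells the shares of all genes under these alternatives are not given, and nothing is read from their counts.

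Where the replicate numbers were not taken to pair the libraries, their deviations correlated from -0.036 to 0.589 in SYAT exons, 0.001 to 0.639 in SYAT introns and 0.076 to 0.296 in wtSRCAP and cdSRCAP introns, and at 0.074 and 0.060 in CGR8. With a replicate block in edgeR, the count of called members was 1, 2 and 2 in SYAT exons at 4, 6 and 8 h, 2 in wtSRCAP exons and 2 in cdSRCAP exons, 1 in each of their introns, 1 for cdSRCAP against wtSRCAP introns after IAA, 1 in CGR8 exons, 5 in EG1 and 5 in LG1 exons, 4 in EG1 and 11 in LG1 introns, and 1 for LG1 against EG1 exons. The blocked fit called more of all genes too, in either direction: 0.396%, 4.29% and 3.3% in SYAT exons at 4, 6 and 8 h, 3.2% in wtSRCAP and 1.81% in cdSRCAP exons, 2.3% and 2.52% in their introns, 1.89% for cdSRCAP against wtSRCAP introns after IAA, 2.47% in CGR8 exons and 7.31% for LG1 against EG1 exons. With the replicate block in DESeq2 the count was 2, 2 and 3 in SYAT exons at 4, 6 and 8 h and 2, 3 and 3 in introns, 1 for 8 h against 2 h in exons and in introns, 2 in wtSRCAP exons and introns, 3 in cdSRCAP exons and 1 in introns, 2 for cdSRCAP against wtSRCAP introns after IAA, 0 in EG1 and 1 in LG1 exons, and 5 in EG1 and 14 in LG1 introns. This fit called 1.05%, 2.93% and 2.39% of all genes lower in SYAT exons at these times and 1.26%, 2.75% and 2.43% in introns. For 8 h against 2 h the shares lower were 0.115% in exons and 0.129% in introns. They were 1.52% and 2.1% in wtSRCAP exons and introns, and 1.76% and 1.94% in cdSRCAP. Shares for its other counts are not given, and nothing is read from those.

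Leaving out 1 library at a time gave 0 to 13 members in SYAT exons and 0 to 6 in introns at 6 h, both highest without 6 h replicate 1, where 3197 and 1510 of all genes were called. It gave 0 to 4 in CGR8 exons and 0 to 1 in introns, both highest without control replicate 2, 0 to 0 in EG1 exons, 0 to 1 in EG1 introns, 0 to 2 in LG1 exons, 1 to 6 in LG1 introns and 0 to 1 in wtSRCAP introns, highest without wtSRCAP IAA replicate 2. EG1 introns reached 1 without control replicate 1 or IAA replicate 2. LG1 exons reached 0 without control replicate 1 or IAA replicate 2, and LG1 introns reached 1 without control replicate 2 or IAA replicate 1. In wtSRCAP exons the alternatives gave log2 differences from -0.99 to -2.04 for Adat2 and from -0.87 to -1.31 for Alkbh8. The cause of these shifts was not tested. Alternatives for LG1 against EG1 introns and for the EG1 and LG1 interaction in introns were not run, because the columns were built differently. With 2 libraries per group and 12236493 exon counts in the shallowest, members such as Nsun7 and Pus3 were too low to be tested in some tables.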
